A study of Homo sapiens with 12 samples.

Results

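The data described here are a stable knockdown, labelled shSigma, in DU145 cells grown attached to plastic. DU145 is an established prostate carcinoma line of human origin. The classes of genes followed below cover the making and degradation of proteins, energy and lipid metabolism, cell contacts, signaling and the endoplasmic reticulum (ER), which folds membrane and secreted proteins, stores calcium and exchanges calcium and lipids with mitochondria where they touch. The proteasome degrades proteins tagged with ubiquitin, and interferon-stimulated genes form the antiviral program of most cell types. The 3 libraries labelled shSigma and the 3 labelled shCtrl in adherent culture were chosen by their labels and make up 6 of the 12 libraries of the study; the other 6 are the same lines grown as tumor spheres. Both groups were DU145 cells in adhesion, differing in the hairpin treatment (shSigma or shCtrl), with replicates numbered 1 to 3 that the labels call independent. Per the study's methods, the knockdown line was made with lentiviral particles carrying a short hairpin RNA and selection with puromycin, and adherent cells were kept in RPMI medium with serum. Each hairpin is represented by a line whose replicates share its history, so an effect of the knockdown and a difference between the lines cannot be told apart, and which hairpin was sequenced is not given in the sources used here.

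Polyadenylated RNA was sequenced, and the deposited counts per gene summed to between 19542016 and 26957777 per library. Of 28747 genes in the table, 13764 had enough counts to be tested. Levels are given as CPM (counts scaled to a library of 1e+06), scaled for library composition, and differences as the log2 fold change of shSigma over shCtrl, in which a negative value means lower after knockdown. CPM is not divided by transcript length, so levels are compared between libraries and not between genes. A gene is said to have risen or fallen where its adjusted p was under 0.05. Of all genes tested, 3073 (22.3%) rose and 3813 (27.7%) fell, and 1045 (7.59%) and 844 (6.13%) did so by more than 1 on the log2 scale. Groups that did not overlap were common, at 59.0% of genes tested. Of the 7777 genes with a mean of at least 20 CPM, called well-expressed here, 1586 (20.4%) rose and 2600 (33.4%) fell. Another 3280 (42.2%) were level, meaning that the 95% interval of the log2 fold change lay wholly within 0.5 of 0. Of these, 698 also passed the test, with small changes. The median log2 fold change was -0.01 over all genes tested and -0.07 over well-expressed genes, so a functional class is read against these values and shares.

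The labelled cell type was checked against markers. Of 7 epithelial markers all were measured, and their summed level ran from 962 to 1016 CPM in shCtrl and from 1056 to 1428 CPM in shSigma. They split in direction, with the keratins KRT8, KRT18 and KRT19 higher and EPCAM, CDH1, ESRP1 and GRHL2 lower, as described below. KLK2 and KLK3, which mark luminal prostate cells, had at most 3 counts in any library, and 2 of that list's 7 genes were tested, with a summed level of 18.9 to 19.97 CPM in shCtrl and 24.2 to 25.8 CPM in shSigma. Markers of other cells were scarce. Of 7 fibroblast markers 2 were tested, with sums of 5.34 to 9.89 CPM in shCtrl and 3.38 to 5.78 CPM in shSigma, and DCN and LUM had at most 3 counts. None of 5 endothelial markers was tested, with sums of 0.128 to 0.502 CPM in shCtrl and 1.42 to 1.63 CPM in shSigma. Of 6 leukocyte markers only CD68 was tested, with PTPRC, CD3E and LYZ at no more than 3 counts and sums of 0.589 to 0.811 CPM in shCtrl and 1.02 to 2.06 CPM in shSigma. Of 6 neuroendocrine markers 2 were tested, CHGA, CHGB and INSM1 being at no more than 3 counts, with sums of 2.82 to 3.67 CPM in shCtrl and 3.45 to 4.76 CPM in shSigma. The endothelial and leukocyte sums were higher in every shSigma library than in any shCtrl library, and the part of such cells or genes in the results was not tested. In bulk RNA of this kind, fewer cells expressing a gene and less RNA per cell cannot be told apart.

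The libraries of this culture varied widely around their group means, and they did so in a shared manner. Over the 7777 well-expressed genes the SD of the log2 ratio of a pair of libraries was 0.0915 for shSigma replicates 1 and 2, but 0.282 and 0.332 for shSigma replicate 3 against them. Among shCtrl libraries it was 0.216 for replicates 1 and 2, 0.179 for 2 and 3, and 0.361 for 1 and 3. Pairs across the groups differed more, with SDs of 0.557 to 0.725. The genes low in shSigma replicate 3 were also low in shCtrl replicate 1: across genes, which are not independent replicates, the difference shCtrl replicate 1 minus 3 and the difference shSigma replicate 3 minus the mean of 1 and 2 had r = 0.92. A total of 671 genes lay more than 0.5 log2 units down in both differences and 0 lay more than 0.5 up in both. The shared pattern followed the GC content of the transcripts, with Spearman's rho of -0.713 and -0.646 over 7768 genes. Among the 10% of genes with the highest GC content (59.1% to 69.9%) the median differences were -0.72 and -0.67, and among the 10% with the lowest they were 0.23 and 0.09. The knockdown difference itself had a weaker relation to GC content (rho = 0.255), with a median log2 fold change of 0.25 in the highest 10% and -0.20 in the lowest.

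**Figure D1:**
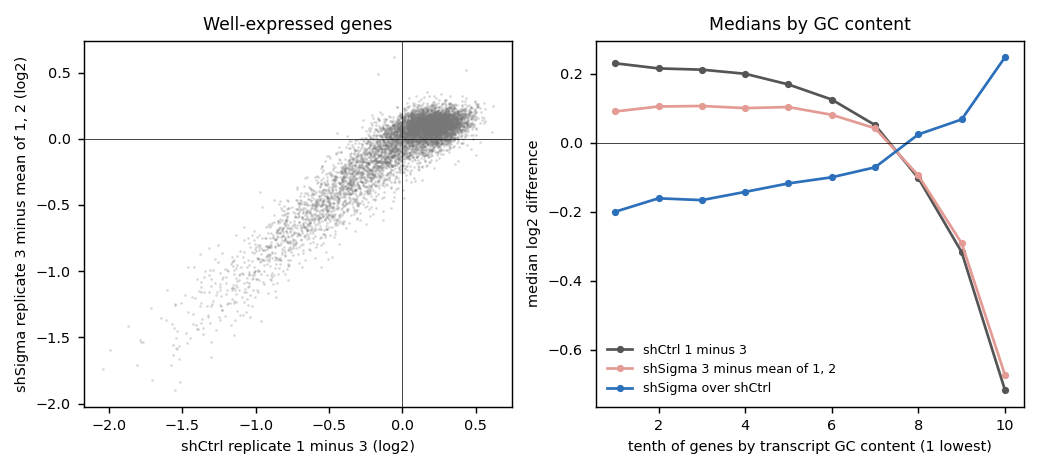
Left, each point is a well-expressed gene (7777), with the log2 difference of shCtrl replicate 1 minus 3 on the x axis and of shSigma replicate 3 minus the mean of replicates 1 and 2 on the y axis. Right, the median of both differences and of the knockdown log2 fold change in 10 equal bins of genes ordered by transcript GC content; the replicate differences reach -0.72 and -0.67 in the highest bin, where the knockdown median is 0.25.

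The biological coefficient of variation, the spread beyond counting error, was 14.4% over the 6 libraries, 6.97% without shSigma replicate 3 and shCtrl replicate 1, and 8.32% after a correction of each library for GC content. Without those libraries 8058 genes passed the test and after the GC correction 8215 did, compared with 6886. Values after the GC correction are given below for named genes that passed the test and that it moved by more than 1.5 times or whose call it ended.

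Of the genes with a mean of at least 50 CPM, 278 passed the test, changed by more than 1 and had groups that did not overlap, 121 higher and 157 lower. EPCAM, an epithelial adhesion molecule, was at 269.9, 229.8 and 209 CPM in shCtrl and 30.1, 29.1 and 29.9 CPM in shSigma. Its log2 fold change was -2.99 (SE 0.11, n = 3 per group, adjusted p = 3.48e-06), and the groups lay far apart with tight replicates.

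MCAM (CD146), an adhesion molecule, fell from 179, 203 and 223 CPM to 24.1, 24.2 and 19.99 CPM, a log2 fold change of -3.15. CD24, a small glycosylated surface protein, rose from 22.4, 23.2 and 23.1 CPM to 481, 456 and 489 CPM, a log2 fold change of 4.38. Both groups of each gene were far apart, and these are opposite changes of surface proteins that are used to mark cell states. EDIL3, a secreted integrin ligand, rose by 3.83 and EFEMP1, a fibulin of the matrix, by 2.46, whereas FBLN1, another fibulin, had a log2 fold change of -1.98 with a wide SE of 0.30. FBLN1 stood at 145, 191 and 257 CPM in shCtrl and 53.5, 63.2 and 34.5 CPM in shSigma. Its lowest value in each group was in shCtrl replicate 1 and shSigma replicate 3, the libraries named above.

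EREG and AREG, both ligands of the epidermal growth factor receptor and neighbours on chromosome 4, fell together. EREG went from 229.9, 228 and 199.5 CPM to 49.96, 49.8 and 47.1 CPM (log2 fold change -2.16) and AREG from 286, 247 and 230.5 CPM to 64.5, 60.6 and 63.5 CPM (-2.02). CSF1, the growth factor of macrophages, rose from 11.5, 15.9 and 19.8 CPM to 263, 284 and 172 CPM, a log2 fold change of 3.93 with an SE of 0.29, the lowest value of each group again being in shCtrl replicate 1 and shSigma replicate 3. STING1, the sensor of cyclic dinucleotides on the ER, rose by 2.71, from 15.2, 15.1 and 16.3 CPM to 104, 109.7 and 92.3 CPM. ALDH1A3, a retinaldehyde dehydrogenase, fell by 2.00, from 257, 256 and 245 CPM to 61.4, 63.5 and 64.96 CPM. The remaining genes of the list were BCHE (8.03), which encodes butyrylcholinesterase, MEGF9 (3.10), NDRG1 (2.70) and ADAMTSL4 (2.67, SE 0.34) among those that rose, and CSGALNACT1 (-3.01), which starts chondroitin sulfate chains, CLSPN (-2.14), DEPDC1 (-1.87) and the pore membrane protein NDC1 (-1.78) among those that fell. MCAM shares part of its span with CBL and ADAMTSL4 with MCL1 in the annotation, and whether counting separated strands is not given in the sources used here.

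**Figure D2:**
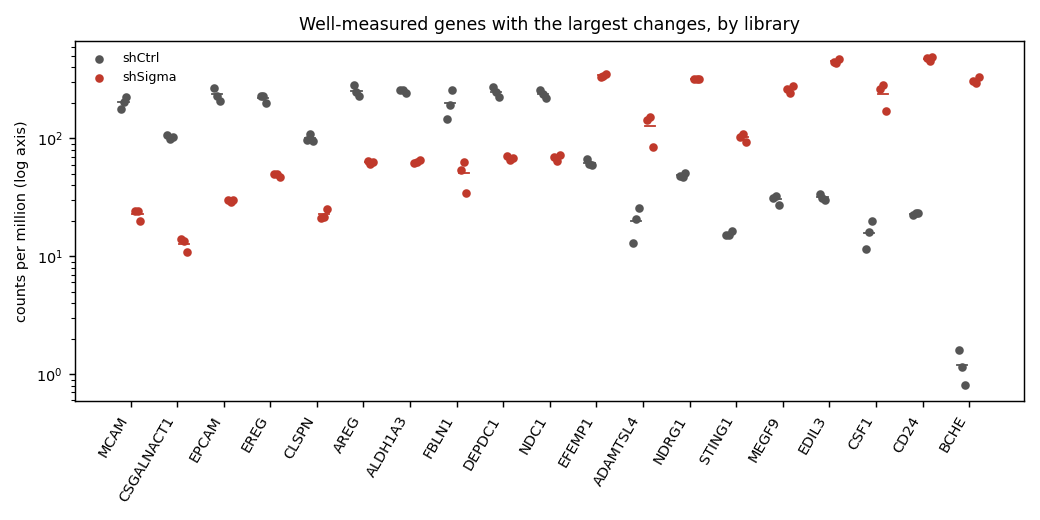
CPM (log axis) of the genes with the lowest and the highest log2 fold changes among those described above, in each of the 6 adherent libraries, with points for libraries and bars for group means (shCtrl grey, shSigma red). EPCAM lies between 209 and 269.9 CPM in shCtrl and near 30 CPM in shSigma, and CD24 and EDIL3 show the reverse direction.

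Some of the strongest lower genes lay in stretches of chromosome 1 where neighbours were lower too. Taken over the 40 tested genes closest to each, the median change on the log2 scale was -0.43 around CLSPN, -0.51 around NDC1, -0.66 around DEPDC1, -0.63 around PRDX1, -0.51 around CCN1 and -0.68 around GCLM. Around EPCAM and MCAM the neighbour medians were -0.01 and -0.03. Whether copy number differs between the lines was not tested.

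Several classes that make, fold or degrade proteins held more genes that fell than rose. In the proteasome, the machine that degrades ubiquitin-tagged proteins, 25 of 32 tested subunits fell and 0 rose (0 also at an unadjusted p under 0.05 and 0 by DESeq2), against 27.7% and 22.3% of all genes, with a median log2 fold change of -0.55. PSMB5, the subunit with chymotrypsin-like activity that proteasome inhibitors bind, was at 179, 167 and 163 CPM in shCtrl and 62.7, 60.2 and 63.7 CPM in shSigma, a log2 fold change of -1.45 (adjusted p = 7.77e-06). PSMA5, of the outer ring, fell from 237, 202 and 187 CPM to 99.2, 96.01 and 113 CPM (-1.02). The groups of both were apart by more than the spread of the libraries. The activator subunit PSME3 was level (-0.16, interval -0.33 to 0.01), and PSMD4, a ubiquitin receptor, changed by -0.30 (interval -0.47 to -0.14). Leaving out each library in turn gave 23 to 26 lower subunits. The neighbours of PSMB5 had a median of -0.70. For the class as a whole 31 of 32 subunits lay below the median of their own neighbours, as did 6846 of 13642 genes tested that had such a median.

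Aminoacyl-tRNA synthetases, which load amino acids onto tRNA, numbered 19, of which 14 fell and 0 rose (0 at an unadjusted p under 0.05, 0 by DESeq2), with a median of -0.41. YARS1, the tyrosyl enzyme, fell from 507, 453 and 435 CPM to 213, 220.5 and 243 CPM (-1.04) and SARS1, the seryl enzyme, from 398, 363 and 350.0 CPM to 184, 183 and 195 CPM (-0.98). EPRS1 and IARS1 changed little, with intervals of -0.42 to -0.05 and -0.49 to -0.16. Without shSigma replicate 1, or without replicate 2, 8 fell.

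In splicing, which joins the exons of messenger RNA, 25 of 43 tested factors fell and 0 rose (0 at an unadjusted p under 0.05, 0 by DESeq2), with a median of -0.38. SRSF1, a serine/arginine-rich splicing activator, stood at 129, 115 and 109 CPM in shCtrl and 55.1, 48.4 and 54.1 CPM in shSigma (-1.16), and SNRPA1, of the U2 particle, fell by 1.13. HNRNPU was level (-0.17, interval -0.34 to 0.00). Of the nuclear pore and transport genes, 27 of 39 fell and 1 rose, with a median of -0.40. KPNA2, an importin, fell by 1.09, from 428, 373 and 360.2 CPM to 174, 179.8 and 189 CPM, and POM121, a pore membrane protein, was the 1 that rose, by 1.13. IPO7 was level (-0.22, interval -0.40 to -0.03). Without shCtrl replicate 3, or without shSigma replicate 2, 2 rose.

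Purine and pyrimidine synthesis, which supplies the bases of RNA and DNA, had 15 of 21 genes lower and 1 higher (median -0.51). MTHFD1, of the folate cycle, fell from 559, 517 and 499 CPM to 193, 198 and 214 CPM (-1.38, SE 0.074). The 2 forms of the enzyme of guanine nucleotide synthesis went apart: IMPDH2 fell from 445, 423 and 398 CPM to 214, 210.4 and 215 CPM (-0.99), while IMPDH1 rose from 20.8, 22.96 and 27.4 CPM to 45.2, 50.6 and 32.8 CPM (0.85, adjusted p = 0.00718, and 0.47 after the GC correction). GMPS, the next step of that pathway, was level at -0.10.

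Ribosomal proteins, translation factors and chaperones were counted next. Of 73 tested cytosolic ribosomal protein genes 23 fell (31.5%, against 27.7% of all genes tested and 33.4% of well-expressed genes). In this class 0 rose (0 at an unadjusted p under 0.05, 0 by DESeq2). The median was -0.21, and near-identical copies of these genes can share reads. RPSA stood apart from the others, falling from 1391, 1161 and 1116 CPM to 362, 357 and 407 CPM (-1.70), while RPL4 was level at 2266, 1938 and 1824 CPM and 1826, 1853 and 2034 CPM. Without single libraries 11 to 28 fell, fewest without shSigma replicate 1 (11), replicate 2 (13), shCtrl replicate 1 (14) and replicate 2 (15), and 2 rose without shSigma replicate 3. Of 36 translation factors 15 fell and 2 rose (median -0.22). Without shCtrl replicate 2 or shSigma replicate 1 or 2, 1 rose, and 9, 8, 8 and 8 fell without shCtrl replicate 1 or 2 or shSigma replicate 1 or 2. EIF3I fell by 0.92 and EIF3J by 0.73, EIF2B4 rose by 0.56, and the elongation factor EEF1A1 was level (0.08, interval -0.18 to 0.35). Of the 22 cytosolic chaperone genes 13 fell and 2 rose (median -0.29). Without shCtrl replicate 1 or 2 or shSigma replicate 1 or 2, 7, 6, 5 and 6 fell. The chaperonin subunits CCT3 (-0.68) and CCT2 (-0.66) fell, the cochaperones BAG3 (0.88) and HSPH1 (0.71) rose, and HSPA8 was level (-0.15, interval -0.37 to 0.07).

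**Figure D3:**
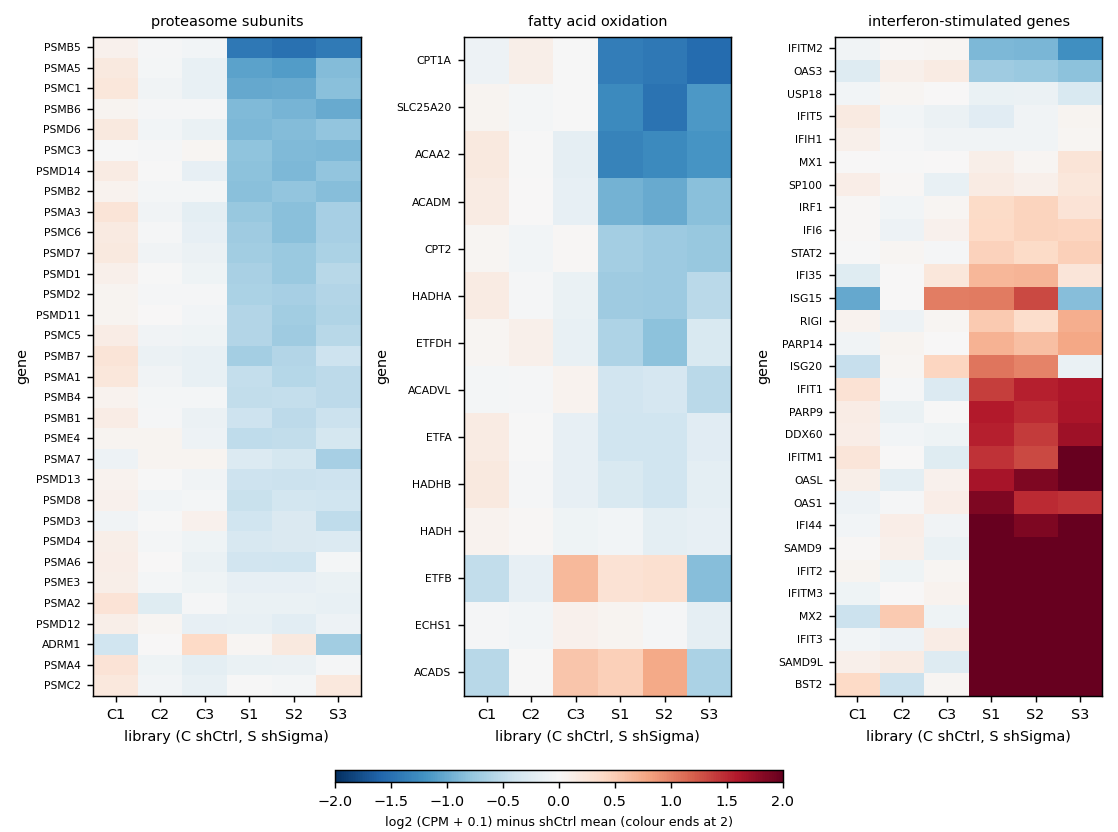
Each row is a tested member, shown where it is reported here, of the proteasome, fatty acid oxidation or interferon-stimulated class and each column a library (C, shCtrl 1 to 3; S, shSigma 1 to 3); colour is log2 (CPM + 0.1) minus the shCtrl mean, ending at 2. The proteasome and fatty acid oxidation panels turn blue in the shSigma columns for most rows (25 of 32 and 10 of 15 tested members fell). The interferon panel turns red (20 of 30 tested members rose, some of them tested only through shSigma).

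Energy metabolism split between pathways. Of 15 tested genes of mitochondrial fatty acid oxidation 10 fell and 0 rose (0 at an unadjusted p under 0.05, 0 by DESeq2), with a median of -0.42. CPT1A, which admits fatty acids to mitochondria, fell from 73.4, 85.2 and 77.9 CPM to 30.1, 29.04 and 26.9 CPM (-1.46), and SLC25A20, the carrier that follows it, from 18.5, 17.5 and 17.7 CPM to 7.32, 6.38 and 7.97 CPM (-1.31). ECHS1, an enzyme of the same spiral, was level, with an interval of -0.24 to 0.14. Without shCtrl replicate 1 or 2, or shSigma replicate 1 or 2, 7 fell.

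Glycolysis had 17 well-expressed genes, of which 11 were level, against 42.2% of all well-expressed genes, and the median was 0.04. GAPDH was at 3473, 3483 and 3599 CPM in shCtrl and 3984, 4027 and 3681 CPM in shSigma, and ENO1 at 4038, 4041 and 4168 CPM and 3837, 3879 and 3645 CPM, with intervals of -0.03 to 0.33 and -0.28 to 0.07. Among those that changed, the neuronal enolase ENO2 rose by 0.58 and the lactate dehydrogenase subunit LDHB fell by 0.72. Of the 19 tested genes 4 rose (21.1%) and 2 fell (10.5%), against 22.3% and 27.7% of all genes tested. Only 1 rose by more than 1, and the highest log2 fold change of the class was 1.08. Without shCtrl replicate 1 or shSigma replicate 1 or 2, 2 rose and 1 fell, without shCtrl replicate 2, 1 rose and 1 fell, and without shSigma replicate 3, 4 rose and 1 fell. ALDOA was at 2.75, 3.29 and 5.91 CPM and 7.97, 11.1 and 6.41 CPM, counts that are low for a gene abundant in most cells and so are doubtful as its level. A fold change or call of ALDOA that rests on these counts is doubtful too. The cause was not tested.

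The citric acid cycle was mixed, with 8 of 21 genes lower (38.1%) and 2 higher (9.52%), against 27.7% and 22.3% of all genes tested. In this class 11 were level, of which 2 were also called, and the median was 0.00. Without shCtrl replicate 1 or shSigma replicate 1 or 2, 5 fell. DLAT and MDH1 each fell by 0.60, while MDH2, the mitochondrial counterpart of the cytosolic MDH1, was level (0.21, interval -0.01 to 0.42). ACO1, which is also the iron-sensing regulator IRP1, rose from 57.7, 54.4 and 51.7 CPM to 117, 114 and 122 CPM (1.10, adjusted p = 2.34e-05). Of the pentose phosphate pathway's 8 genes 3 fell (37.5%) and 1 rose (12.5%), against 27.7% and 22.3% of all genes tested. TALDO1 rose by 0.44 (0.30 after the GC correction), RPIA fell by 0.70, and RPE was level. TKTL1 had by far the largest change of the class, a log2 fold change of -10.09 (-10.40 to -9.54 over the alternatives that tested it). It was not tested where at least 10 counts were required in every library, so the size of its fall rests on few counts and is uncertain.

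Of 22 tested cholesterol genes 7 fell (31.8%, against 27.7% of all genes tested) and 1 rose, with a median of -0.15 that was -0.03 without shCtrl replicate 1 and -0.30 after the GC correction. The number that rose was 2 without shCtrl replicate 1 or shSigma replicate 2. SQLE, the squalene epoxidase, fell from 167, 154 and 151 CPM to 88.2, 93.6 and 93.5 CPM (-0.78). INSIG1, the ER protein that holds back sterol-driven transcription, rose by 0.82, and FDPS and IDI1 of the same pathway were level (-0.38 to 0.07 and -0.25 to 0.16). Of 14 fatty acid synthesis genes 5 rose (35.7%) and 2 fell (14.3%), against 22.3% and 27.7% of all genes tested (class median 0.24). Only 1 fell without shCtrl replicate 1 or shSigma replicate 1 or 2, and 7 rose and 4 fell after the GC correction, with a median of 0.15. SCD, which desaturates stearate, rose from 1764, 1706 and 1619 CPM to 3030.2, 3007 and 3329 CPM (0.88), ACSS2 by 0.66, and ACLY and FADS1 were level.

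Targets of ATF4, a transcription factor of the amino acid response, were mostly lower or unchanged in the test. Of 22 tested targets 10 fell and 2 rose (median -0.38), and 1 rose without shSigma replicate 1, without shSigma replicate 2 or after the GC correction. SLC7A11, the cystine importer, fell from 305, 332 and 283 CPM to 137, 128 and 136 CPM (-1.20) and SLC7A5, the leucine importer, from 230.1, 325 and 432 CPM to 147, 171 and 90.6 CPM (-1.27, SE 0.31), the latter with a wide spread and an adjusted p of 0.0634 or 0.0711 without shCtrl replicate 2 or shSigma replicate 1. CEBPG was level (-0.13). VLDLR, listed as a target, rose by 0.82, and DDIT4 was higher by 0.28, but -0.011 after the GC correction and without its call when shCtrl replicate 2 or shSigma replicate 1 or 2 was left out (adjusted p = 0.0679, 0.0634 and 0.0519).

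In the ER itself the direction varied from gene to gene. Of 18 tested chaperones and disulfide enzymes 7 fell (38.9%) and 3 rose (16.7%), against 27.7% and 22.3% of all genes tested (class median -0.22). Without shCtrl replicate 1 or 2 or shSigma replicate 1 or 2, 4, 3, 4 and 3 fell. MANF, a secreted protein of the ER stress response, fell from 162, 136 and 121 CPM to 63.9, 62.4 and 73.5 CPM (-1.07) and ERO1A, the disulfide oxidase, from 422, 426 and 388 CPM to 233, 225 and 231 CPM (-0.85). The disulfide isomerase P4HB, on the other hand, rose from 528, 527 and 589 CPM to 908, 949 and 820.4 CPM (0.70). HSPA5, the main ER chaperone, changed little, at 1432, 1319 and 1272 CPM and 1108, 1083 and 1143 CPM with an interval of -0.44 to -0.10. DNAJB9 rose by 0.49 and CALR, the calcium-binding calreticulin, by 0.29 (0.16, adjusted p = 0.184, after the GC correction). CANX, which encodes the membrane chaperone calnexin, was at 1.49, 1.41 and 1.51 CPM and 1.07, 1.56 and 0.979 CPM. Such counts are low for a gene that is abundant in most cells, so they are doubtful as its level, and the cause was not tested.

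Sensors of ER stress and degradation numbered 18, of which 5 rose (27.8%) and 7 fell (38.9%), against 22.3% and 27.7% of all genes tested. Of the 18, 12 were level, 6 of these being among those called, and the class median was 0.00. Those that fell numbered 3, 2, 2 and 3 without shCtrl replicate 1 or 2 or shSigma replicate 1 or 2. ATF6, a membrane-bound sensor, rose by 0.66 and SYVN1, a ubiquitin ligase of the ER membrane, by 0.48 (0.29 after the GC correction), whereas the channel component DERL1 fell by 0.75 and UFD1 by 0.50. Of 21 genes of ER–mitochondria contact and calcium handling 6 rose (28.6%, against 22.3% of all genes tested) and 6 fell (28.6%, against 27.7%). In this class 14 were level, 7 of these also called. The lower ones numbered 2, 1, 1 and 1 without the same 4 libraries in turn. The calcium release channel ITPR1 fell from 51.2, 53.1 and 54.3 CPM to 34.7, 36.6 and 37.8 CPM (-0.54). VDAC1, the outer-membrane pore, was level, and the pump ATP2A2 rose by only 0.35. FIS1, of the fission machinery, rose by 0.61 (0.38 after the GC correction) and TMCO1, an ER calcium channel, by 0.55.

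Many genes of the coats that carry cargo between ER and Golgi rose. Of 21 coat and coat-recruiting genes 11 rose and 2 fell (median 0.28). SEC24A, which picks cargo for the COPII coat, went from 60.9, 59.2 and 54.8 CPM to 100.2, 95.3 and 105 CPM (0.78). Its partner in the same inner layer, SEC23A, went the other way, from 489.7, 449.7 and 424 CPM to 321, 325 and 344 CPM (-0.46). SEC23B fell by 0.29 and SEC16A rose by 0.70 with a wide interval (0.15 to 1.25), while COPZ1 was level. Without shCtrl replicate 2, 7 rose, and SEC16A lost its call without shCtrl replicate 2 or shSigma replicate 1 or 2 (adjusted p = 0.0839, 0.107 and 0.111). SEC23B lost it without shCtrl replicate 1 or 2 or shSigma replicate 1 or 2 (adjusted p = 0.11, 0.101, 0.152 and 0.14).

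Lysosomal genes went both ways: 13 of 32 rose (40.6%) and 10 fell (31.25%), against 22.3% and 27.7% of all genes tested (class median 0.18). Those that fell numbered 5, 5, 4 and 5 without shCtrl replicate 1 or 2 or shSigma replicate 1 or 2. GUSB, a hydrolase, rose from 70.6, 69.1 and 74.1 CPM to 123, 133 and 122 CPM (0.82) and PSAP, the precursor of the saposins, by 0.76. CTSV, a cathepsin, fell from 59.4, 48.6 and 47.1 CPM to 21.2, 21.3 and 23.2 CPM (-1.24) and GLA by 0.94. CD63, a tetraspanin of lysosomal membranes, was level (interval 0.08 to 0.42, and 0.09, adjusted p = 0.58, after the GC correction). The proton pump that acidifies lysosomes had 7 of 15 subunits lower and 1 higher (ATP6V1F, 0.66), with ATP6V1H down by 0.80 and ATP6V0B by 0.59 and ATP6V1E1 level, and with 3, 2, 2 and 3 lower without the same 4 libraries in turn.

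Of 27 tested antioxidant genes and NRF2 targets 10 rose (37.0%) and 8 fell (29.6%), against 22.3% and 27.7% of all genes tested. Those that fell numbered 5 without shCtrl replicate 1 or 2 or shSigma replicate 1 or 2. Subunits of a single enzyme moved apart. Glutamate-cysteine ligase, which makes the first intermediate of glutathione, consists of a catalytic subunit (GCLC) and a modifier subunit (GCLM). GCLC rose from 137, 123 and 114 CPM to 248, 223 and 244 CPM (0.94), and GCLM fell from 234, 219 and 199 CPM to 92.8, 86.3 and 88.6 CPM (-1.28). PRDX1, a peroxiredoxin, fell from 2039.9, 1595 and 1498 CPM to 618, 616 and 691 CPM (-1.42), whereas the transporter ABCC3 rose by 1.34; GSR and SOD1 changed little (-0.48 to -0.11 and -0.29 to 0.05).

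Genes of cell contacts moved apart within families. Of 19 tested keratin and desmosome genes 10 rose and 4 fell (median 0.58). With at least 10 counts required in every library 8 rose and 4 fell. After the GC correction 11 rose and 5 fell, with a median of 0.40. The 12 well-expressed members had a median GC content of 56.5%, against 45.8% of well-expressed genes. Their median log2 distance from the mean of the 6 libraries was -0.54, -0.32 and -0.01 in shCtrl and 0.38, 0.56 and -0.02 in shSigma. The replicates numbered 3 thus lay close together. KRT19 went from 65.1, 91.01 and 122 CPM to 404, 435 and 205 CPM (1.91, SE 0.36, and 1.52 after the GC correction). DSC2 and DSG2, desmosomal cadherins, fell by 0.81 and 0.46, and their relative DSG3 was at 0 in all shCtrl libraries and at 31.4, 29.99 and 34.7 CPM in shSigma. DSG3, which is among the 10 that rose, thus passed the filter only through shSigma, so its direction adds no support. PKP4 was level. Of 27 junction genes 8 rose (29.6%, and 5 without shCtrl replicate 2) and 10 fell (37.0%), against 22.3% and 27.7% of all genes tested. ESRP1, the regulator of epithelial splicing, fell from 81.1, 75.1 and 70.9 CPM to 1.91, 2.66 and 2.80 CPM (-4.94), and the tight junction claudins went apart, CLDN7 from 49.7, 50.1 and 56.5 CPM to 4.01, 3.01 and 2.32 CPM (-4.06) and CLDN4 from 1.85, 2.22 and 2.16 CPM to 28.1, 30.6 and 21.7 CPM (3.69). The catenins CTNNA1 and CTNND1 that anchor junctions changed by no more than 0.25, with intervals of -0.05 to 0.25 and 0.07 to 0.42. CLDN7 overlaps ELP5 in the annotation.

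**Figure D4:**
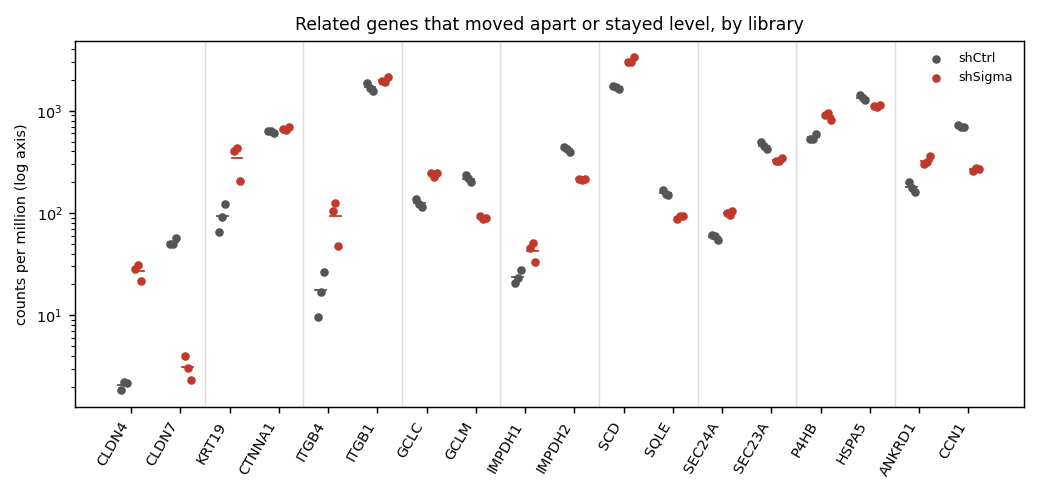
CPM (log axis) of related genes in each library, in pairs divided by grey lines, with points for libraries and bars for group means (shCtrl grey, shSigma red). CLDN4 and CLDN7, GCLC and GCLM, IMPDH1 and IMPDH2, SCD and SQLE, SEC24A and SEC23A, and ANKRD1 and CCN1 moved in opposite directions. CTNNA1 and ITGB1 were level beside KRT19 and ITGB4 (ITGB1 in only 8 of 16 alternatives), as was HSPA5 beside P4HB.

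Attachment to matrix was mixed. Of 23 integrins and laminins 5 rose (21.7%, against 22.3% of all genes tested) and 5 fell (21.7%, against 27.7%). The lower ones numbered 3 without shCtrl replicate 2 or shSigma replicate 2, and 2 without shSigma replicate 1. ITGB4, the integrin chain of hemidesmosomes, went from 9.58, 16.98 and 26.5 CPM to 105, 125.2 and 47.2 CPM, a log2 fold change of 2.38 with an SE of 0.50, the lowest value of each group being in shCtrl replicate 1 and shSigma replicate 3. ITGA1 rose by 1.37 and ITGB5 fell by 1.44, and ITGB1, the common beta chain, was level, but stayed so in only 8 of 16 alternatives. Of 34 focal adhesion and actin genes 8 rose and 8 fell, 23.5% each, against 22.3% and 27.7% of all genes tested. Without shSigma replicate 3, 13 rose. The lower ones numbered 5 without shCtrl replicate 1, and 4 without shCtrl replicate 2 or shSigma replicate 1 or 2. MSN rose by 0.60 and LIMA1 fell by 0.84, and ACTG1 was level in the mean but wide across libraries (2098, 2397 and 2805 CPM and 2653, 2698 and 1847 CPM). Of 36 collagens and matrix genes 11 rose (30.6%) and 13 fell (36.1%), against 22.3% and 27.7% of all genes tested. COL4A5, of basement membranes, fell from 74.7, 79.5 and 74.5 CPM to 0.466, 0.402 and 0.445 CPM (-7.42). LOX, which cross-links collagen, rose from 8.75, 9.60 and 8.34 CPM to 56.8, 60.99 and 63.04 CPM (2.76) and TNC, tenascin C, from 19.00, 21.04 and 22.1 CPM to 113, 113 and 106 CPM (2.42), while the collagen-modifying PLOD2 and P4HA1 were level.

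Signaling targets also split. Of 23 targets of YAP and TEAD 10 rose (43.5%) and 8 fell (34.8%), against 22.3% and 27.7% of all genes tested. Without shSigma replicate 1, 5 fell. CCN1 (CYR61) fell from 732, 699 and 692 CPM to 255, 277 and 271 CPM (-1.40) and CCN2 (CTGF) by 0.70, while ANKRD1, another commonly used target, rose from 199, 174 and 161 CPM to 302, 316 and 358 CPM (0.87). MYOF was level. Of 24 MAPK genes 12 fell (7 without shCtrl replicate 2) and 6 rose: EPHA2 fell by 1.12 with an SE of 0.32 (adjusted p = 0.0962, 0.0725 and 0.111 without shCtrl replicate 2, shCtrl replicate 3 or shSigma replicate 1), ETV4 by 0.91, DUSP1 rose by 0.87 and SPRY2 by 0.73, and FOSL2 was level. Of 24 NF-κB genes and cytokines 10 fell (41.7%) and 6 rose (25.0%), against 27.7% and 22.3% of all genes tested. TNFAIP3, an inhibitor of NF-κB signaling, rose from 6.95, 7.98 and 7.22 CPM to 44.6, 51.3 and 45.7 CPM (2.68) and LIF fell from 119, 141 and 164 CPM to 52.1, 56.2 and 43.9 CPM (-1.48), as did CXCL5 (-1.46). NFKBIA was at -0.18 (-0.27 after the GC correction).

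Interferon-stimulated genes, which interferon or viral RNA and DNA sensing switches on through a complex that holds STAT2 and IRF9, had a median of 0.70. Of 30 tested members 20 rose and 2 fell, and 8 more did not pass the filter. MX2, OAS1, BST2 and SAMD9L had fewer than 10 counts in every shCtrl library and so passed the filter only through shSigma, where they were higher. The filter itself favored a rise of such genes, so their direction adds no support. OAS1, BST2 and SAMD9L are among the 20 that rose. With at least 10 counts required in every library 15 rose and 2 fell, with a median of 0.54. Without shCtrl replicate 3 the median was 1.22. Only 9 of the 30 were well-expressed, so most values rest on low counts. IFITM3, which blocks viral entry, rose from 4.99, 5.33 and 5.56 CPM to 42.5, 41.4 and 28.4 CPM (2.82), SAMD9 from 3.81, 4.01 and 3.40 CPM to 17.1, 17.4 and 18.4 CPM (2.24) and IFIT3 from 1.45, 1.41 and 1.70 CPM to 13.3, 11.9 and 16.03 CPM (3.17). IFITM2 and OAS3 went down, by 1.01 and 0.77. SP100, of nuclear bodies, was level. Without single libraries 19 to 22 rose and 2 fell.

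Promoter sequences of 29 of the 38 listed interferon genes were found in RefSeq (GRCh38.p14), each covering 250 bases before the start and 50 after. They were searched on both strands for the core of the interferon-stimulated response element, GAAA followed by any 2 bases and GAAA, in 300-base windows. It occurs in 18 of 29 (62.1%) and in 3.65% of all 27305 promoters. The 17 promoters of genes that rose include those of OAS1, BST2 and SAMD9L, which were tested only through shSigma. The motif was in 10 of these 17, in 5 of 6 of those tested that neither rose nor fell, and in the promoter of OAS3, which fell. The 250 bases upstream of BST2 and IFIT3, which rose, and IFIT5, a neighbour of IFIT3 on chromosome 10 that was level (-0.09, interval -0.36 to 0.19), show this, with the motif in capitals, and the last match of IFIT5 runs past the printed bases. Of 5 listed genes that were not tested 2 had a match. A match describes letters and is not a binding site.
BST2, chr19:17405631-17405880, minus strand: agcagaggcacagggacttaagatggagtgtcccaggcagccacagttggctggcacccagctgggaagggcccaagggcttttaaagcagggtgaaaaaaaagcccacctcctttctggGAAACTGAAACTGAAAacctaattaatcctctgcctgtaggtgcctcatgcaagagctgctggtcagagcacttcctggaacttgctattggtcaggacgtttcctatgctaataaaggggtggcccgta
IFIT3, chr10:89327747-89327996, plus strand: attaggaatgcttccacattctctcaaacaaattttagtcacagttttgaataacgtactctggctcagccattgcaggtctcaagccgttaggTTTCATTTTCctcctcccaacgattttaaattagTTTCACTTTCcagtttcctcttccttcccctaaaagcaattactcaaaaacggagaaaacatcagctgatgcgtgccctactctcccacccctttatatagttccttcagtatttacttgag
IFIT5, chr10:89414318-89414567, plus strand: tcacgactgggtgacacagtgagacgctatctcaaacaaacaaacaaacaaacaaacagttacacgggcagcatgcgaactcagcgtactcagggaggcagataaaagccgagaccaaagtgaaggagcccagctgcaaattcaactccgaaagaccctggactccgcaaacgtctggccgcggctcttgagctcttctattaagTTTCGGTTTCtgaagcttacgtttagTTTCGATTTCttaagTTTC

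BST2 is a low-count gene, at 0.0785, 0 and 0.0386 CPM in shCtrl and 0.792, 0.653 and 0.623 CPM in shSigma. Antigen presentation by MHC class I could be followed for 7 of 15 genes, of which 2 rose (28.6%, against 22.3% of all genes tested). Only 3 of these 7 were well-expressed. ERAP2, a peptide-trimming enzyme, rose from 76.99, 71.6 and 65.99 CPM to 127, 126 and 139.8 CPM (0.87), and its relative ERAP1 and B2M, the common light chain, were level. Of 19 annexins and S100 genes 7 rose (36.8%) and 3 fell (15.8%), against 22.3% and 27.7% of all genes tested. Those that fell numbered 1 without shCtrl replicate 1 or 2 or shSigma replicate 1 or 2. ANXA11 rose from 123, 127 and 129.7 CPM to 248, 248 and 236 CPM (0.95) and S100A10 by 0.50, S100A11 fell by 0.35 (not called without shCtrl replicate 1 or 2 or shSigma replicate 1 or 2, adjusted p = 0.115, 0.0749, 0.148 and 0.123), and ANXA2 and ANXA5 were level (-0.14 to 0.38 and -0.25 to 0.21).

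**Figure D5:**
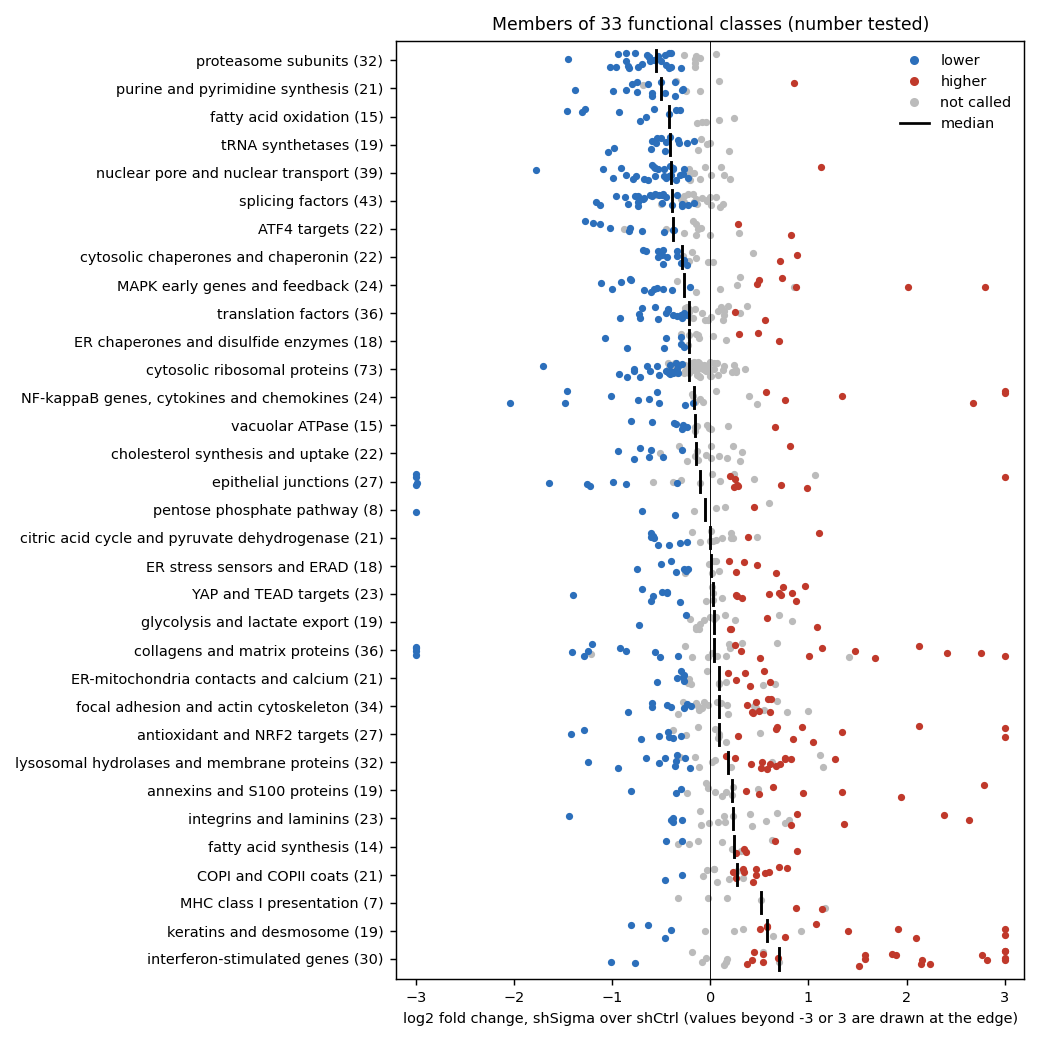
Log2 fold change (x axis) of each tested member of 33 functional classes (rows, ordered by median, with the number tested), coloured blue where it fell, red where it rose and grey where it did not pass the test; the black bar is the class median. The proteasome median is -0.55 and the interferon-stimulated median 0.70 (0.54 with at least 10 counts in every library). Most classes hold members on both sides of 0.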

How the data were processed

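The deposited table holds whole-number counts of reads per gene, made by the authors with STAR 2.6.1c on GRCh38.p12 (per the submitters' processing notes). Libraries came from 800 ng of RNA and were sequenced as single 75-base reads with a directional kit. The annotation and strand setting are not given in the sources used here. Every column of the table belongs to a labelled sample (0 were left unused).

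Counts of the 6 adherent libraries were fitted in edgeR 4.0.16 (R 4.3.3) with TMM scaling, filterByExpr at a minimum count of 10, a robust quasi-likelihood F test and Benjamini-Hochberg adjustment over 13764 genes. DESeq2 1.42.0 was an alternative. The fit was tested on simulated data. Named genes are the targeted gene, the 10 highest and 10 lowest called fold changes above 50 CPM with groups apart, and in each class up to 2 higher, 2 lower and 2 level members, the last by mean level, among those above 10 CPM. The targeted gene and some others that this rule names are not reported here. IFIT3, IFIT5 and BST2 were chosen after their values were seen, as were CANX and ALDOA. Class lists were set by hand. The members and lists were chosen with earlier results of these data known. GC content and gene spans came from GENCODE release 44. Neighbours are the 40 nearest tested genes on the chromosome. Intervals cover only the spread between 3 libraries per group, whose independence the labels state.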

Additional observations from a re-analysis of the deposited data

How the results depend on the processing

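Other normalizations, filters and thresholds, a fit of all 12 libraries, DESeq2, the replicate number as a block, the GC correction and leaving out libraries changed the number of genes called from 6886 to between 4874 and 8215, and no gene was called in the opposite direction under any of them. Genes called lower fell from 3813 to 2477 without shSigma replicate 1 and ranged from 2477 to 3934 over the 6 libraries left out in turn. Bounding the interval at 0.3 in place of 0.5 reduced the level genes from 3280 to 1223. DDIT4 was -0.011 after the GC correction against 0.28. The share of higher calls ran from 41.0% to 52.7% against 44.6%. Of 133 named genes that passed the test, 113 kept their call in each alternative that tested them. TKTL1, DSG3 and COL4A5 are counted there but were not tested where at least 10 counts were required in every library. Of 65 named level genes 31 stayed level in each alternative with the bound at 0.5. ITGB4 lost its call with the replicate block (adjusted p = 0.0566). Same-numbered libraries did not deviate together (r across genes of -0.78, 0.03 and -0.93). These deviations were taken without the GC correction and carry the shared pattern related to GC content. Whether same-numbered cultures were handled together was therefore not tested. With the replicate block 4874 genes passed, 2127 higher and 2747 lower. Leaving out the pair of far libraries and the GC correction were chosen after seeing the data. By DESeq2, 14 focal adhesion genes rose in place of 8, 4 genes of ER stress fell in place of 7 and 3 of ER-mitochondria contact in place of 6. FDPS, SOD1 and PSMD4 were level before but not after the GC correction.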
